A study of Homo sapiens with 9 samples.

Results

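The 53 genes described here are developmental transcription factors, and a few of their partners, from outside the HOX clusters that are well known as targets of Polycomb repression. They were found by symbol in a table of 58037 genes, and all 53 were present. Polycomb repressive complex 2 (PRC2) places methyl groups on lysine 27 of histone H3 through its enzyme EZH2, or through the related EZH1, and the mark keeps the genes of other lineages silent. Its classic targets are master regulators of body plan and organ identity whose promoters lie in CpG islands. Cancer cells often retain the silence of some of these genes and express others.

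RNA was sequenced from 3 human cell lines labelled MDA-MB-453, MDA-MB-436 and MDA-MB-231, all established from triple-negative breast cancer according to the study's design text. Each line gave 3 libraries, 1 labelled GSK343 (an inhibitor of EZH2's enzymatic activity), 1 labelled shEZH2 (a short hairpin RNA against EZH2) and 1 control that the sample labels call untreated. The table's header names the same controls shControl, which leaves unclear whether a control hairpin was present. Neither source gives the dose, the exposure time, the hairpin sequence or the number of clones. Total RNA came from cultured cells in serum-containing DMEM. With 1 library per line and condition, the lines served as the replicates of a treatment, and p-values measure the spread between these libraries only. The values are RPKM, reads scaled to gene length and to library size, so levels can be set side by side between genes. A gene at 1 RPKM or more is called expressed below, and one under 1 RPKM is called silent, as working names. In bulk RNA, fewer expressing cells and less RNA per cell cannot be told apart.

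The libraries held an estimated 14757000 to 18283000 reads. EZH2 had 7.99 RPKM in the GSK343 library, 16.2 in the shEZH2 library and 42.3 in the control of MDA-MB-453. In MDA-MB-436 it had 7.53, 37.4 and 38.9 RPKM in the same order of labels, and in MDA-MB-231 it had 5.77, 16.4 and 27.4 RPKM. EZH2 was thus lowest in every line under the label of the enzyme inhibitor, and the hairpin label of MDA-MB-436 differed little from its control. Over the lines its log2 fold change was -2.19 ± 0.47 in GSK343 libraries (the ± value is the distance to either bound of the 95% confidence interval, limma adjusted p = 0.000424) and -0.70 ± 0.47 in shEZH2 libraries (limma adjusted p = 0.0597). This order goes against the labels, so the text speaks of libraries labelled GSK343 or shEZH2. The libraries labelled MDA-MB-453 stood between the other lines. Of the genes at 1 RPKM or more in either of the other lines, 74.6% under the GSK343 label, 83.9% under the shEZH2 label and 47.8% in the controls had an MDA-MB-453 value between those of MDA-MB-436 and MDA-MB-231. The treatment calls are therefore also given without these libraries, where the EZH2 log2 fold change was -2.15 for GSK343 (limma adjusted p = 0.0213) and -0.38 for shEZH2 (limma adjusted p = 0.359). ESR1 and PGR, the hormone receptors that triple-negative tumours lack, stayed at or under 0.0602 RPKM in all 9 libraries. They belong to 13 luminal markers, of which 4 were under 1 RPKM in all 9, while others were expressed, such as GATA3 with up to 9.85 RPKM and FOXA1 with up to 3.31. Of 6 leukocyte markers 5 were under 1 RPKM in all 9, CD14 being the exception at 3.78 to 12.5 RPKM.

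Most promoters of these regulators are rich in CG dinucleotides. RefSeq promoters (build GRCh38.p14, 250 bases before to 50 after the first start listed for a symbol) were matched for 37 of the 53 genes. The motif searched was CG, which reads the same on both strands, and counts do not overlap. These promoters held a median of 24 CG (8 to 50), against 14 over all 27305 promoters of the same length. At least 10 CG stood in 94.6% of the members' promoters and in 56.0% of all promoters, and at least 1 CG stood in 100% and 95.8%. The median was 24 for 13 members expressed in all 9 libraries, 30 for 10 members expressed in MDA-MB-436 and silent in MDA-MB-231, and 19.5 for 6 members silent in all 9. The 250 bases before the start are printed for 5 genes that stand for the patterns described below, with each CG in capitals. FOXQ1 (plus strand, chr6:1311848-1312097, 29 CG) passed the treatment test and was expressed in every library. MSX1 (plus strand, chr4:4859415-4859664, 24 CG) and FOXD1 (minus strand, chr5:73448778-73449027, 13 CG) were expressed in MDA-MB-436 and silent in MDA-MB-231. SIX2 (minus strand, chr2:45009453-45009702, 26 CG) had the opposite pattern, and OTX2 (minus strand, chr14:56810480-56810729, 7 CG) was silent throughout.
FOXQ1: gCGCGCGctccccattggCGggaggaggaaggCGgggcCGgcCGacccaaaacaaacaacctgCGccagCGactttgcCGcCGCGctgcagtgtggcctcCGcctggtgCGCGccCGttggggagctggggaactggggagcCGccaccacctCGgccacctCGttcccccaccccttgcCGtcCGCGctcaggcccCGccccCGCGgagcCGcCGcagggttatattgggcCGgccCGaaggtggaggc
MSX1: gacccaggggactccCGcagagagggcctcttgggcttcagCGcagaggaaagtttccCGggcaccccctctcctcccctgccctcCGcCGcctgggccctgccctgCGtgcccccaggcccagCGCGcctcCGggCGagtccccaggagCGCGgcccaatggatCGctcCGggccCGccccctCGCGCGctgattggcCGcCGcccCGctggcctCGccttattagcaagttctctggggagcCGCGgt
FOXD1: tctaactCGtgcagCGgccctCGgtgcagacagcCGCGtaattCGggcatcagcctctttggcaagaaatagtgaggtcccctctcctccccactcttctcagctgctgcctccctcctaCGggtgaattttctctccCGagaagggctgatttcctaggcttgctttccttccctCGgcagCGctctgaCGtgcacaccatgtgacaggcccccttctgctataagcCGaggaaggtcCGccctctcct
SIX2: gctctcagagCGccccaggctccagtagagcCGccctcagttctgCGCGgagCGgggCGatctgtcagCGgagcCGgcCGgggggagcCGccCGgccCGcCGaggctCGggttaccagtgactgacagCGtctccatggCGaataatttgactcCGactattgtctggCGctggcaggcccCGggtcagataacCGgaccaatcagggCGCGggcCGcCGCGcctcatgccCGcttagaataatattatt
OTX2: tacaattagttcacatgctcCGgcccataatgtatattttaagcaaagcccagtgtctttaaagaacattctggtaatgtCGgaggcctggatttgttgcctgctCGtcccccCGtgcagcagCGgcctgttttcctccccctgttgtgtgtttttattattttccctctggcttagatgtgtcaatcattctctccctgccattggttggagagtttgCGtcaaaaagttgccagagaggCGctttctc
The FOXQ1, MSX1 and SIX2 windows carried CG along their whole length, while the OTX2 window had few and long stretches without any. OTX2 is not typical of the silent members. Over the full promoter it had 9 CG, the fewest of those 6, which ranged up to 31 in LHX6. SOX4, expressed in all 9 libraries, had 8. No methylation or histone data were analysed here, so the sequences are a description only.

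The number of expressed regulators differed by line more than by treatment label. MDA-MB-453 had 35 of the 53 at 1 RPKM or more in the GSK343 library, 32 in the shEZH2 library and 30 in the control. MDA-MB-436 had 39, 38 and 38, and MDA-MB-231 had 21, 20 and 21, under the same order of labels. Of all genes in the table, 19.6% to 21.4% reached 1 RPKM in a library. Across the whole set, 16 regulators were expressed in all 9 libraries, 27 in some, and 10 in none.

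**Figure D1:**
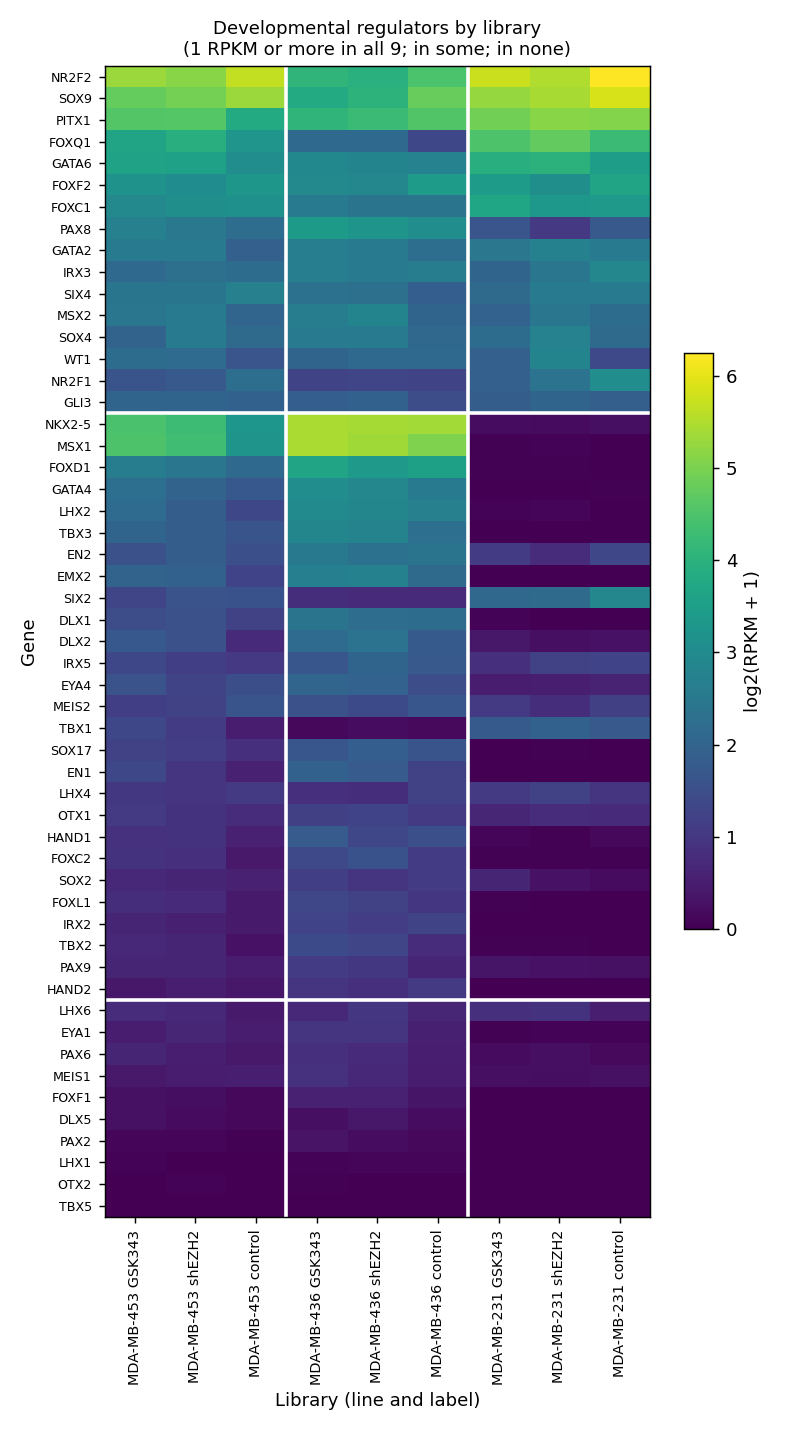
RPKM of the 53 regulators (rows) in the 9 libraries (columns, by line and label) on a log2(RPKM + 1) colour scale, grouped as expressed in all 9, in some and in none. The block of 16 regulators expressed everywhere is followed by 27 whose expression depends largely on the line, and the 10 at the end stay under 1 RPKM.

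The 10 silent regulators include makers of eye, kidney, heart and forebrain. LHX6, a regulator of cortical interneurons, came closest to the boundary, with a highest value of 0.997 RPKM in the shEZH2 library of MDA-MB-436. Highest values were 0.945 RPKM for EYA1, a coactivator of organ formation, 0.867 for MEIS1, a partner of HOX proteins, and 0.821 for PAX6, the regulator of eye development. FOXF1, a factor of lung and gut mesenchyme, reached 0.498 RPKM, DLX5, a factor of branchial arch and bone, 0.326, and PAX2, a kidney regulator, 0.251. LHX1, of the kidney and the head organizer, reached 0.0854 RPKM, OTX2, of the forebrain, 0.0368, and TBX5, of heart and forelimb, 0.0149. Just above the boundary stood HAND2, a heart and limb factor with a highest value of 1.08 RPKM, and SOX2, a stem cell factor with 1.25.

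The 16 regulators expressed in all 9 libraries were NR2F2, SOX9, PITX1, FOXQ1, GATA6, FOXF2, FOXC1, PAX8, GATA2, IRX3, SIX4, MSX2, SOX4, WT1, NR2F1 and GLI3. PITX1, which specifies hindlimb and pituitary, had 23.0, 23.0 and 13.0 RPKM in the GSK343, shEZH2 and control libraries of MDA-MB-453, 16, 18.1 and 22.5 in MDA-MB-436, and 29.3, 34.2 and 32.8 in MDA-MB-231. Its labelled libraries were above the control in MDA-MB-453 and below it in MDA-MB-436. GATA6, an endoderm and heart factor, had 11.2, 10.8 and 7.33 RPKM in MDA-MB-453, 6.60, 6.02 and 5.84 in MDA-MB-436, and 14.2, 15.1 and 10.3 in MDA-MB-231. Both labelled libraries exceeded the control in every line, but the test over lines did not pass for GATA6. Its log2 fold change was 0.36 ± 0.27 for both labels together (limma adjusted p = 0.0676). In GSK343 libraries alone it was 0.37 ± 0.31 (limma adjusted p = 0.128). FOXF2, a mesenchymal factor, had 8.29, 7.23 and 8.91 RPKM in MDA-MB-453, 6.71, 6.40 and 9.94 in MDA-MB-436, and 9.73, 7.65 and 11.5 in MDA-MB-231, so the control was highest in each line.

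Several members lie next to each other. FOXQ1, FOXF2 and FOXC1, which lie in that order on chromosome 6 at distances of 74828 and 214369 bases, were expressed in all 9 libraries. FOXF1, FOXC2 and FOXL1, in that order on chromosome 16 at distances of 51411 and 6640 bases, were all silent in MDA-MB-231. FOXC2, a factor of lymphatic vessels, had 1.61, 1.99 and 1.15 RPKM in the GSK343, shEZH2 and control libraries of MDA-MB-436, and FOXL1, of gut mesenchyme, had 1.53, 1.37 and 0.987 there, while FOXF1 stayed under 1. DLX1 and DLX2, forebrain and jaw factors 9762 bases apart on chromosome 2, were both expressed in MDA-MB-436 and silent in MDA-MB-231. TBX5 and TBX3, 261812 bases apart on chromosome 12, differed. TBX5 was silent in all lines, while TBX3 was expressed in MDA-MB-436 and MDA-MB-453 and silent in MDA-MB-231.

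Between MDA-MB-436 and MDA-MB-231, 16 regulators were expressed in all libraries of MDA-MB-436 and silent in all libraries of MDA-MB-231, a pattern shown by 863 genes, or 1.49% of the whole table. MSX1 (chr4:4859666-4863936, GRCh38, plus strand, ENSG00000163132.6), a homeobox repressor of tooth and limb development, had 42.9, 39.8 and 31.6 RPKM in the GSK343, shEZH2 and control libraries of MDA-MB-436, against 0.032, 0.0516 and 0 in those of MDA-MB-231. The MDA-MB-231 values rest on 1, 2 and 0 recovered reads. NKX2-5 (chr5:173232109-173235357, minus strand, ENSG00000183072.9), an early regulator of the heart, had 43.0, 41.1 and 40.5 RPKM in MDA-MB-436, against 0.162, 0.131 and 0.199 in MDA-MB-231. FOXD1, a factor of kidney stroma, had 11.5, 9.36 and 10.7 RPKM in MDA-MB-436, against 0.0258, 0.0209 and 0 in MDA-MB-231. The choice of the 16 fixes that the lines do not overlap for these genes. GATA4, which works with NKX2-5 in the heart, had 7.39, 6.40 and 4.85 RPKM in MDA-MB-436, against 0.0153, 0 and 0.0269 in MDA-MB-231. TBX3, a T-box repressor of limb and mammary development, had 6.30, 5.89 and 3.88 RPKM in MDA-MB-436, against 0.0114, 0.00919 and 0 in MDA-MB-231. LHX2, a forebrain and hair follicle regulator, had 6.84, 6.33 and 5.63 RPKM in MDA-MB-436, against 0.051, 0.0618 and 0 in MDA-MB-231. EMX2, a factor of cortex and urogenital tract, had 5.44, 5.65 and 3.45 RPKM in MDA-MB-436 and was listed at 0 in all 3 MDA-MB-231 libraries. The same listing at 0 held for EN1, a hindbrain and limb factor with 2.87, 2.49 and 1.36 RPKM in MDA-MB-436, and for IRX2, an Iroquois factor with 1.39, 1.20 and 1.44. The remaining 7 were DLX1, DLX2, SOX17, HAND1, FOXC2, EYA4 and OTX1, with 1.08 to 4.26 RPKM in MDA-MB-436. In MDA-MB-231 the highest value of the 16 was 0.724 RPKM, for OTX1, and 11 of them stayed at or under 0.1 RPKM under every label.

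Among the 53, SIX2 and TBX1 had the opposite pattern, which 595 genes, or 1.03% of the whole table, showed. SIX2, which maintains kidney progenitors, had 0.767, 0.688 and 0.675 RPKM in the GSK343, shEZH2 and control libraries of MDA-MB-436, against 3.23, 3.50 and 6.39 in those of MDA-MB-231. TBX1, a regulator of the pharyngeal arches, had 0.104, 0.161 and 0.119 RPKM in MDA-MB-436, against 2.42, 2.82 and 2.34 in MDA-MB-231. TBX1 overlaps GNB1L, and without a stated strand setting of the counting, reads of the pair may be mixed.

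**Figure D2:**
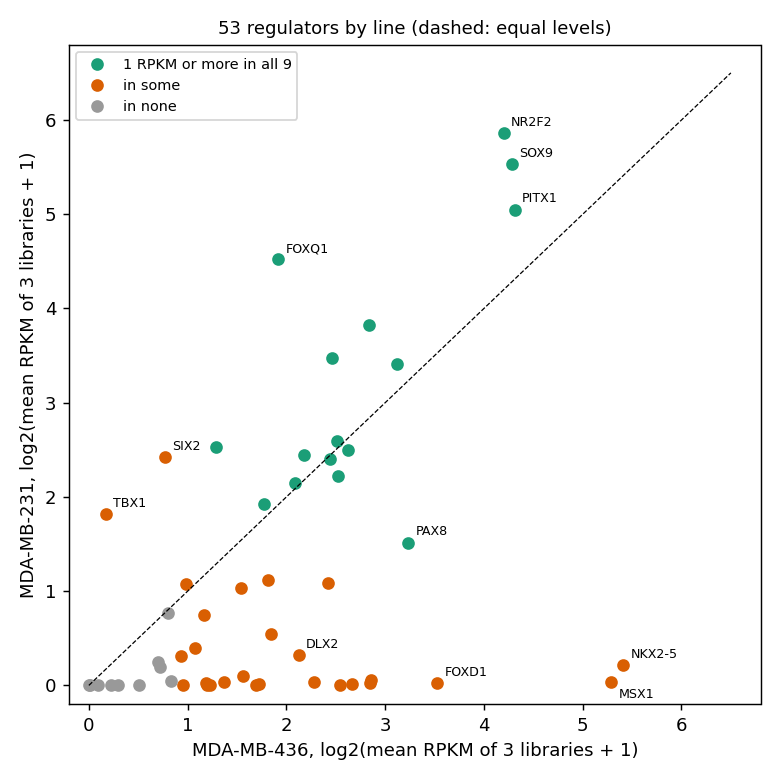
Mean RPKM of the 3 libraries of MDA-MB-436 (horizontal axis) and of MDA-MB-231 (vertical axis) for the 53 regulators, both as log2(mean RPKM + 1), with a dashed line at equal levels. The 31 regulators silent in MDA-MB-231 lie along the bottom, the 16 of them that are expressed in MDA-MB-436 reach furthest right with NKX2-5 and MSX1, and the points above the line include FOXQ1, NR2F2, SOX9, SIX2 and TBX1.

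The line difference was tested with limma on log2(RPKM + 1) over 12965 genes that reached 1 RPKM in at least 3 libraries, 38 of the 53 regulators among them. A gene above and below 1 RPKM in different lines passes that filter through the line where it is high, so its direction is fixed and its test supports nothing. Among the 38, 29 passed at a Benjamini-Hochberg adjusted p under 0.05, 20 higher and 9 lower in MDA-MB-436, where 63.4% of all tested genes passed (34.8% higher, 28.6% lower). Leaving aside the 18 regulators with such fixed directions, 11 of 20 passed, 4 higher and 7 lower in MDA-MB-436, and over all genes of the same kind 59.0% passed. FOXQ1 was lower in MDA-MB-436 (log2 fold change -2.64 ± 0.32, limma adjusted p = 2.78e-08), as were NR2F2 (-1.64 ± 0.29, limma adjusted p = 6.74e-07) and SOX9 (-1.29 ± 0.31, limma adjusted p = 9.42e-06). PAX8, a regulator of thyroid and kidney, was higher (1.75 ± 0.40, limma adjusted p = 6.57e-06), and its antisense neighbour PAX8-AS1 stood at 12.5, 10.0 and 8.05 RPKM in the GSK343, shEZH2 and control libraries of MDA-MB-436, so reads may be shared between them. Without the MDA-MB-453 libraries, 29 of the regulators passed. The 3 libraries of a line are 1 culture type under 3 labels, so these p-values compare the libraries and not many isolates of each line.

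Across the lines, SOX9 and NR2F2 fell and FOXQ1 rose in libraries labelled for EZH2 targeting, and no other of the 38 tested regulators passed. The untested regulators, the 10 silent ones among them, fell under the filter, so the test says nothing on them. Taking both labels as one against the controls, 3 of 38 tested regulators passed (limma, Benjamini-Hochberg adjusted p under 0.05), 1 higher and 2 lower, where 16.5% of all tested genes passed (12.2% higher, 4.3% lower). At that threshold the members' share, 7.89%, was below that of all genes. The median log2 fold change was 0.13 over the 38 regulators and 0.05 over all tested genes, and an unadjusted p under 0.05 was reached by 16 of the 38 (42.1%) and by 32.9% of all tested genes. Median-ratio rescaling moved the median of all genes by -0.085 and the split of calls over all genes to 1149 higher and 1151 lower, against 1584 and 557 without it. Under it 24 of the 38 regulators and 45.9% of all genes had a log2 fold change above 0, against 28 regulators and 56.9% of all genes without it, and FOXF2 and NR2F1 joined those called.

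SOX9 (chr17:72121020-72126420, GRCh38, plus strand, ENSG00000125398.5) directs cartilage and testis development and marks progenitors in mammary and other epithelia. It had 26.3 RPKM in the GSK343 library, 29.9 in the shEZH2 library and 38.5 in the control of MDA-MB-453. MDA-MB-436 gave 13.0, 15.5 and 26.8 RPKM in that order, and MDA-MB-231 gave 37.0, 41.9 and 57.0. Both labelled libraries were below the control in each line, though values of the groups overlapped across lines because the lines start from different levels. The groups averaged 25.4 ± 12.0, 29.1 ± 13.2 and 40.8 ± 15.2 RPKM (SD, n = 3 lines each). The log2 fold change was -0.61 ± 0.27, 1.53-fold lower (limma adjusted p = 0.00796). By label it was -0.71 ± 0.31 in GSK343 libraries (limma adjusted p = 0.0136) and -0.51 ± 0.31 in shEZH2 libraries (limma adjusted p = 0.04). Whichever 1 library was left out, SOX9 still passed for both labels together, but it was lost for the GSK343 label without the GSK343 library of MDA-MB-436 (-0.63), and for the shEZH2 label whichever of the 9 libraries was left out. The antisense gene SOX9-AS1 stayed at or under 0.0502 RPKM.

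NR2F2 (chr15:96325938-96340263, GRCh38, plus strand, ENSG00000185551.13), also known as COUP-TFII, is a nuclear receptor of veins, atria and mesenchyme. MDA-MB-453 had 38.7 RPKM in the GSK343 library, 34.3 in the shEZH2 library and 50.2 in the control. MDA-MB-436 had 16.1, 14.6 and 21.4 RPKM in that order, and MDA-MB-231 had 52.5, 44.0 and 74.7. Here too both labelled libraries lay below the control in every line. The groups averaged 35.7 ± 18.4, 31.0 ± 14.9 and 48.8 ± 26.7 RPKM (SD, n = 3 lines each), with a log2 fold change of -0.51 ± 0.25, 1.42-fold lower (limma adjusted p = 0.0126). In shEZH2 libraries alone it was -0.60 ± 0.29 (limma adjusted p = 0.0167), and in GSK343 libraries -0.42, which did not pass (limma adjusted p = 0.071). The call for both labels was lost without the MDA-MB-231 control (-0.45), and the call for shEZH2 was lost without the shEZH2 library of MDA-MB-231 (-0.55), MDA-MB-436 (-0.64) or MDA-MB-453 (-0.62). Its antisense neighbour NR2F2-AS1 stayed at or under 0.337 RPKM.

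FOXQ1 (chr6:1312440-1314748, GRCh38, plus strand, ENSG00000164379.6) is a forkhead factor of hair and stomach that is known for promoting epithelial-mesenchymal transition in breast cancer cells. It had 11.6 RPKM in the GSK343 library, 14.4 in the shEZH2 library and 8.57 in the control of MDA-MB-453. In MDA-MB-436 it had 3.40, 3.38 and 1.55 RPKM in that order, and in MDA-MB-231 it had 21.8, 26.0 and 18.2. Both labelled libraries were above the control in each line, and the lines kept their order, MDA-MB-231 highest, under every label. The groups averaged 12.3 ± 9.21, 14.6 ± 11.3 and 9.43 ± 8.34 RPKM (SD, n = 3 lines each), with a log2 fold change of 0.56 ± 0.27, 1.48-fold higher (limma adjusted p = 0.0121). It was 0.65 ± 0.32 in shEZH2 libraries (limma adjusted p = 0.0173) and 0.48 in GSK343 libraries, which did not pass (limma adjusted p = 0.0639). The call for both labels was lost without the MDA-MB-453 control (0.58), and the call for shEZH2 without that control (0.67) or without the shEZH2 library of MDA-MB-231 (0.67), MDA-MB-436 (0.66) or MDA-MB-453 (0.62).

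Without the 3 libraries labelled MDA-MB-453, none of the 38 regulators passed in any of these comparisons, and the number of all genes that passed for both labels together was 145, against 2141 with them. The 3 log2 fold changes then were -0.70 for SOX9, -0.54 for NR2F2 and 0.58 for FOXQ1, as large as with those libraries. Leaving out MDA-MB-436 lost all 3 calls as well, with log2 fold changes of -0.48, -0.54 and 0.46 in the same order, while NR2F1 and WT1 were called instead. Leaving out MDA-MB-231 lost NR2F2 (-0.45), while DLX2, EMX2 and EN1 joined SOX9 and FOXQ1. The regulators called thus changed with the line left out. Fewer libraries also leave fewer residual degrees of freedom in these fits. Markers of cell state also passed for both labels together. Of 7 tested mesenchymal markers FN1 rose (0.69 ± 0.28, limma adjusted p = 0.00569), while AXL (-0.71 ± 0.29, limma adjusted p = 0.00559) and VIM (-0.57 ± 0.34, limma adjusted p = 0.0276) fell. Of 8 tested luminal markers KRT18 fell (-0.61 ± 0.32, limma adjusted p = 0.018), and of 3 tested basal markers none passed. The stromal marker LUM rose (0.58 ± 0.38, limma adjusted p = 0.0416), and the leukocyte marker CD14 rose under the shEZH2 label (0.73 ± 0.42, limma adjusted p = 0.0332). Their part in the changes of the 3 regulators was not tested. Without the MDA-MB-453 libraries none of the mesenchymal and luminal markers passed. The number of regulators called for both labels moved to 5 without the GSK343 library of MDA-MB-231, to 7 without the MDA-MB-231 control and to 6 without the MDA-MB-436 control. Over all 12965 genes, leaving out 1 library or 1 line in turn gave 145 to 2053 calls.

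**Figure D3:**
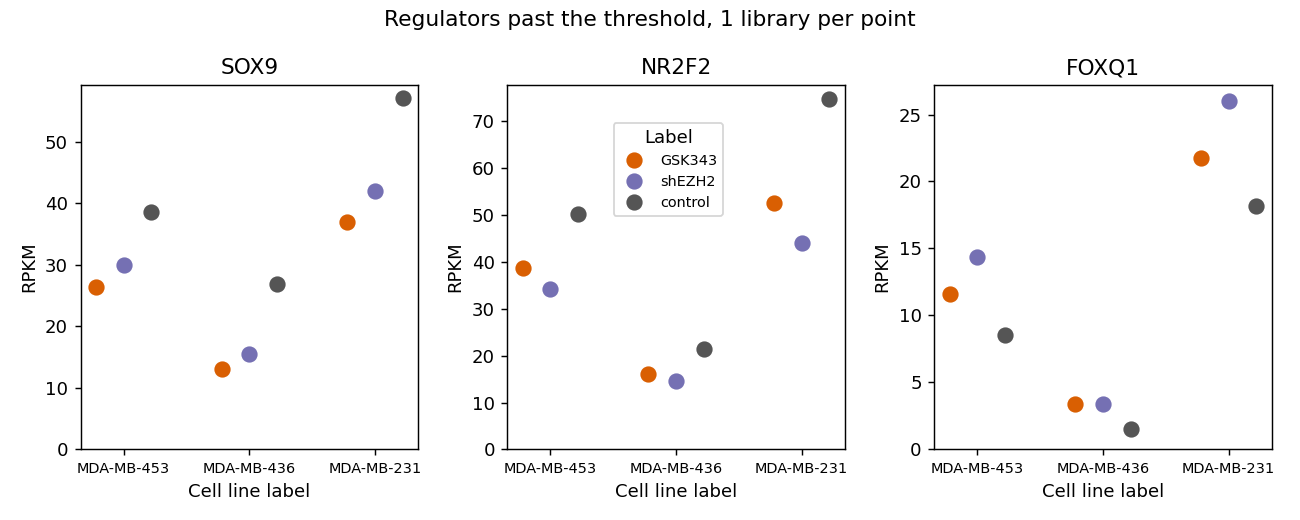
RPKM of SOX9, NR2F2 and FOXQ1 (vertical axes, from 0) by cell line label, with 1 point per library coloured by treatment label. Within each line both labelled points lie below the control point for SOX9 and NR2F2 and above it for FOXQ1, while the lines themselves differ by more.

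**Figure D4:**
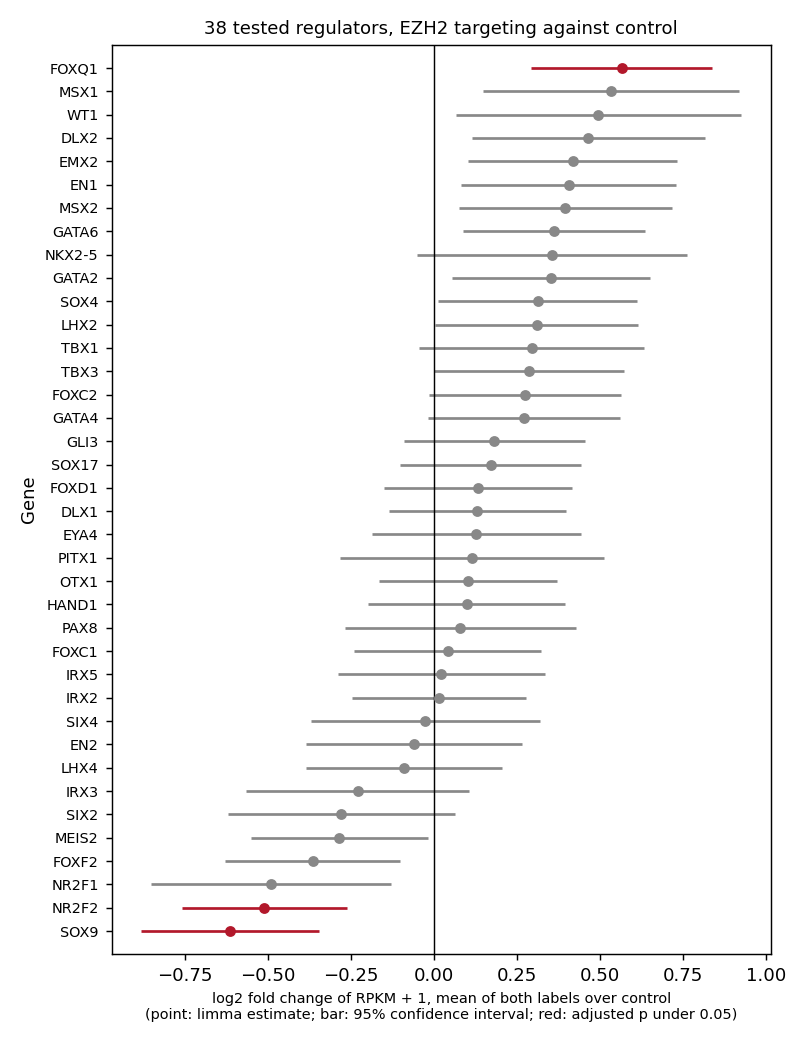
Log2 fold change of RPKM + 1, mean of both labels over control, for the 38 tested regulators (point, limma estimate; bar, 95% confidence interval; red, adjusted p under 0.05). The 3 red points are SOX9 and NR2F2 below 0 and FOXQ1 above 0, and 28 of the 38 estimates lie above 0, as do 56.9% of those of all tested genes.

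By label, 1 regulator passed in GSK343 libraries, SOX9, where 7.85% of all genes passed (6.25% higher, 1.6% lower), and 3 passed in shEZH2 libraries, where 10.6% passed (8.35% higher, 2.28% lower). These comparisons share the same controls. An unadjusted p under 0.05 was reached by 11 of the 38 (28.9%) for GSK343, against 25.8% of all genes, and by 13 (34.2%) for shEZH2, against 28.6% of all genes. Without the MDA-MB-231 control 5 regulators passed in each comparison, and without the MDA-MB-436 control 3 passed for GSK343 and 5 for shEZH2. For shEZH2 none passed without the shEZH2 library of MDA-MB-231 or of MDA-MB-453, and 1 passed without that of MDA-MB-436 or without the MDA-MB-453 control. Over all 12965 genes, leaving out 1 library or 1 line in turn gave 43 to 1250 calls for GSK343 and 16 to 1621 for shEZH2. With median-ratio rescaling, all genes split into 521 higher and 442 lower for GSK343 (810 and 208 without it) and 805 higher and 620 lower for shEZH2 (1082 and 295 without it).

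Other regulators had the same sign in all 3 lines and did not pass, where the sign for both labels together is that of their mean. For both labels together MSX1 had a log2 fold change of 0.53 ± 0.39 (limma adjusted p = 0.0588), FOXF2 -0.36 ± 0.26 (limma adjusted p = 0.0595) and DLX2 0.47 ± 0.35 (limma adjusted p = 0.0675). In the GSK343, shEZH2 and control libraries of MDA-MB-231, MSX1 rests on 1, 2 and 0 reads and DLX2 on 14, 10 and 12. DLX2 was below its control under the shEZH2 label there (log2 fold change -0.068). The sign of these 2 genes in MDA-MB-231 therefore supports nothing. For the GSK343 label MSX1 had 0.58 ± 0.44 (limma adjusted p = 0.102), and for the shEZH2 label SOX4, a factor of progenitor and metastatic cells, had 0.51 ± 0.34 (limma adjusted p = 0.0596) and MSX2, the relative of MSX1, 0.53 ± 0.37 (limma adjusted p = 0.068). SOX4 had 2.94, 4.95 and 3.47 RPKM in the GSK343, shEZH2 and control libraries of MDA-MB-453, 4.92, 5.08 and 3.26 in MDA-MB-436, and 3.60, 5.79 and 3.46 in MDA-MB-231, so its shEZH2 library was the highest in each line.

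Set directly against each other, GSK343 and shEZH2 libraries gave 0 regulators and 0 genes past the limma threshold (0% of all genes). At an unadjusted p under 0.05 there were 295 genes, 1 regulator among them, SOX4, with a log2 fold change of -0.40 ± 0.34 in GSK343 over shEZH2 libraries. The differences for SOX9 and NR2F2 were -0.20 and 0.18. A p that misses the threshold does not show that the interventions act alike.

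In MDA-MB-453, 26 of the 38 tested regulators were higher than the control under both labels, where 48.4% of all tested genes were, and 8 were lower under both, where 41.3% were. The medians of their log2 fold changes were 0.35 for GSK343 and 0.31 for shEZH2, against 0.04 and 0.06 over all genes. In MDA-MB-436, 23 were higher under both labels (55.0% of all genes) and 7 lower (32.4%), with medians of 0.16 and 0.10, against 0.10 and 0.09. In MDA-MB-231, 10 were higher under both labels (37.7% of all genes) and 15 lower (34.0%), with medians of -0.025 and -0.001, against 0.021 and 0.001. Both labels of a line are set against 1 control library, so a control that stands apart moves both. The 16 regulators expressed in MDA-MB-436 and silent in MDA-MB-231 are among the 38 and passed the filter through other lines. Their changes in MDA-MB-231 are kept small by log2(RPKM + 1), and EMX2, EN1 and IRX2 were at 0 there under every label. The MDA-MB-231 counts and medians therefore partly reflect values near the floor and cannot be set level with those of the other lines.

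A test of whether the response differed between lines passed for 0 of the 38 regulators and 3 of all tested genes (0.0231%, limma with 3 residual degrees of freedom). At an unadjusted p under 0.05 there were 9 regulators (23.7%) and 3710 genes (28.6%). NKX2-5 came closest (limma adjusted p = 0.0843), followed by MSX1 and PITX1 (limma adjusted p = 0.094 each). The 2 labelled libraries of a line served as replicates in this test beside 1 control, so the spread of controls was not measured. NKX2-5 and MSX1 passed the filter through MDA-MB-436 and MDA-MB-453. In MDA-MB-231 they rest on 5, 5 and 7 and on 1, 2 and 0 reads. Their change there is thus held near 0 on log2(RPKM + 1), and their rank in this test supports nothing. NKX2-5 had 20.8 RPKM in the GSK343 library, 18.4 in the shEZH2 library and 8.71 in the control of MDA-MB-453, against 43.0, 41.1 and 40.5 in MDA-MB-436. MSX1 had 21.4, 18.9 and 8.40 RPKM in MDA-MB-453, against 42.9, 39.8 and 31.6 in MDA-MB-436. The log2 fold changes of MSX1 were 1.25 and 1.08 under the GSK343 and shEZH2 labels of MDA-MB-453, 0.43 and 0.32 in MDA-MB-436, and 0.05 and 0.07 in MDA-MB-231. NR2F1, a nuclear receptor of the nervous system related to NR2F2, had 2.79, 4.15 and 7.37 RPKM in the GSK343, shEZH2 and control libraries of MDA-MB-231, 1.42, 1.47 and 1.42 in MDA-MB-436, and 2.08, 2.35 and 3.75 in MDA-MB-453. Its labelled libraries were below the control in MDA-MB-231 and MDA-MB-453 and level with it in MDA-MB-436, and its antisense neighbour NR2F1-AS1 reached 1.96 RPKM. WT1, a regulator of kidney and gonad, was highest in the shEZH2 library of MDA-MB-231, with 6.0 RPKM, against 1.58 in that line's control. Without the MDA-MB-453 libraries the test, then between 2 lines, passed for 0 regulators and 0 genes. Leaving out the GSK343 or the shEZH2 library of MDA-MB-231 left 1 labelled library in that line and raised the number of regulators called. The ranges over all genes and over the regulators are given together at the end of the text.

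The levels of the 16 regulators expressed in MDA-MB-436 and silent in MDA-MB-231 were then read in MDA-MB-453, which the choice of those genes did not use. The choice did use the MDA-MB-436 values by which they are divided below, so the percentages are not free of it. As a percentage of MDA-MB-436 under the same label, their MDA-MB-453 levels had a median of 51.8% in GSK343 libraries, 46.0% in shEZH2 libraries and 33.9% in controls. For all 863 genes chosen in the same way the medians were 52.1%, 50.1% and 52.6%. NKX2-5 stood at 48.3% in GSK343, 44.7% in shEZH2 and 21.5% in control libraries, and DLX2 at 65.5%, 46.0% and 28.6%. EYA4, of the inner ear and heart, had its highest share in the controls, with 65.4%, 50.0% and 101%. Under both labels the percentage was above that of the controls for 12 of the 16 regulators, where 38.5% of the 863 genes did so. The control medians were 32.0% with median-ratio rescaling and 37.8% with rescaling to a common sum, alternatives chosen after seeing the data. Of all regulators at 1 RPKM or more in either other line, 38 of 42 under GSK343, 37 of 41 under shEZH2 and 31 of 40 in controls had an MDA-MB-453 level between those lines. The part that the position of these libraries between the other lines plays in the differences from their control was not tested.

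**Figure D5:**
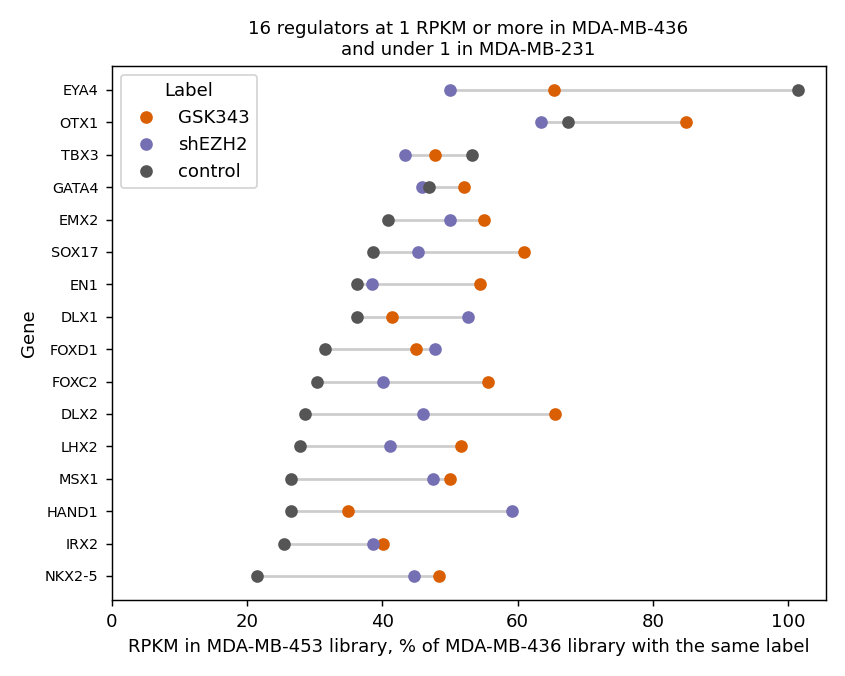
Level in the MDA-MB-453 library as a percentage of the MDA-MB-436 library with the same label (horizontal axis) for the 16 regulators expressed in MDA-MB-436 and silent in MDA-MB-231, coloured by label. Most GSK343 and shEZH2 points lie near 50%, with medians of 51.8% and 46.0%, and most control points lie lower, with a median of 33.9%.

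Regulators that crossed 1 RPKM between a control and both labelled libraries are given by line. In MDA-MB-453, DLX2, SOX17 and TBX1 were at 1 RPKM or more under both labels and under 1 in the control, which is 3 of the 23 that were under 1 there, where 1.64% of all such genes did so, and 0 of 30 went the other way (2.53% of all such genes). TBX1 had 1.55 RPKM in the GSK343 library, 1.15 in the shEZH2 library and 0.391 in the control, and SOX17, an endoderm and endothelial factor, had 1.34, 1.21 and 0.795. DLX2 had 2.30, 1.92 and 0.69 RPKM there. In MDA-MB-436, FOXL1, PAX9 and TBX2 crossed upward, 3 of 15 (1.62% of all such genes), with PAX9, of tooth and thymus, at 1.16, 1.01 and 0.563 RPKM and TBX2, a T-box repressor of senescence, at 1.64, 1.46 and 0.741. HAND2 and LHX4 crossed downward there, 2 of 38 (1.92% of all such genes). In MDA-MB-231, LHX4, a pituitary and motor neuron factor, crossed upward, 1 of 32 (0.83% of all such genes), with 1.08, 1.31 and 0.935 RPKM, and 0 of 21 crossed downward (2.11% of all such genes). The percentages are taken over all genes on the same side of 1 RPKM in the control, those at 0 included. For upward crossings the shares of regulators and of all genes are therefore not level, and no excess is read from them.

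In MDA-MB-231 most silent regulators remained near 0 under both labels. Of its 31 regulators under 1 RPKM in all 3 libraries, 11 were listed at 0 in the GSK343 library, 12 in the shEZH2 library and 17 in the control, and 22, 22 and 21 were under 0.1 RPKM. Of all 58037 genes, 24430, 24998 and 22975 were above 0 in these libraries, in the same order. Fewer zeros under both labels were thus not particular to the regulators. At this depth, levels that rest on 0 to 7 reads, as for MSX1, FOXD1, LHX2, TBX2 and NKX2-5, do not separate the labels. In MDA-MB-436, 13 of the 16 regulators expressed there and silent in MDA-MB-231 were above the control under both labels, where 64.4% of the 863 genes of the same pattern were.

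Related genes outside the 53 were tested for both labels together, where 16.5% of all genes passed. Of 79 further members of the same gene families, 27 were tested, and 2 rose and 0 fell, with a median log2 fold change of 0.13. They were MEIS3 (0.64 ± 0.33, limma adjusted p = 0.0168) and NKX2-8 (0.53 ± 0.31, limma adjusted p = 0.0274). Of 39 HOX genes, the body-axis regulators that are the best-known Polycomb targets, 19 were tested, and 2 rose and 0 fell, HOXB9 by 0.92 ± 0.27 (limma adjusted p = 0.00105) and HOXC6 by 0.45 ± 0.31 (limma adjusted p = 0.0493). Among 11 tested PRC2 genes 1 rose and 2 fell, namely PHF1, an accessory subunit, with 0.57 ± 0.25 (limma adjusted p = 0.00905), and EZH2 and the accessory subunit PHF19, PHF19 with -0.80 ± 0.25 (limma adjusted p = 0.00157). EZH1, the alternative enzyme, had 0.37 (limma adjusted p = 0.0954), and the core subunits SUZ12 and EED had -0.17 and -0.12, none of which passed. KDM6B, a demethylase of the same lysine, rose by 0.89 ± 0.33 (limma adjusted p = 0.00378), while KDM6A, its relative, had 0.23 (limma adjusted p = 0.355). Of 16 tested cofactors of these regulators LDB1, the adaptor of LIM-homeodomain proteins, rose by 0.44 ± 0.29 (limma adjusted p = 0.043) and none fell. None of 4 tested antisense or divergent partners of the 53 passed. Without the MDA-MB-453 libraries, HOXB9 (0.95, limma adjusted p = 0.0363), PHF19 (-0.86, limma adjusted p = 0.033) and EZH2 (-1.26, limma adjusted p = 0.0347) still passed. MEIS3 (0.55), NKX2-8 (0.39), HOXC6 (0.28), PHF1 (0.52), KDM6B (0.75) and LDB1 (0.27) did not.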

How the data were processed

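The authors deposited 1 table of RPKM for 58037 genes and 9 libraries (0 unused columns). STAR, HTSeq and GRCh38 are named in the submitters' processing notes, and for their versions, the annotation and the strand setting the entry is "not given in the sources used here". Headers assigned each column to a line and label. Multiplied by GENCODE release 29 exon lengths, values gave whole reads within 0.05 of a read for genes whose identifier version matched (92.5% of identifiers), which gave read numbers and depth. Coordinates come from that release, on GRCh38.

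Genes at 1 RPKM or more in at least 3 libraries were tested as log2(RPKM + 1), a scale that understates changes of low genes, with limma 3.58.1 (R 4.3.3, mean-variance trend), with terms for treatment and line and Benjamini-Hochberg adjustment over 12965 genes at 0.05. Both labels together is the mean of their 2 contrasts. The response by line was tested with 1 mean for the control and 1 for the 2 labelled libraries of each line. Its residual spread is thus the difference between the GSK343 and shEZH2 libraries of a line. The fit was tested on simulated data. The libraries are paired by their shared cell line. After subtracting each label's mean over the lines, correlations across genes were 0.358 to 0.953 within lines and -0.914 to 0.09 between lines. That subtraction pushes correlations between lines below 0, so the contrast of the 2 ranges is partly built in.

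The 53 genes, the other lists and the tests were chosen with earlier results of these data known. Named genes are members that passed, those with the smallest p and 1 sign in all lines up to 6 per comparison, the 8 of highest mean level, members that part the lines at 1 RPKM, silent members and those near 1 RPKM, and called genes of the other lists. Alternatives were other pseudocounts, filters, scalings, moderation, left-out libraries and lines, and no line term.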

Additional observations from a re-analysis of the deposited data

How the results depend on the processing

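The number of regulators at 1 RPKM or more per library kept the order of the lines with thresholds of 0.5 and 2 RPKM. The fold changes of SOX9, NR2F2, FOXQ1 and EZH2, the genes followed through all alternatives, kept their sign in each of them. With all genes above 0 tested and no filter on low values, 186 genes passed for both labels together, 14 for GSK343 and 15 for shEZH2, 0 of them regulators in each comparison, and 887 passed the test of a difference between lines. With a mean of at least 5 RPKM required, 1386 genes passed for both labels together, 1 in the direct comparison of labels, 7 for a difference between lines, and 4722 between MDA-MB-436 and MDA-MB-231 with 8 regulators. Median-ratio rescaling gave 5 regulators for both labels and 2 for GSK343, and a fit of only the 6 GSK343 and control libraries also gave 2. Without the replicate block (no line term), 3 genes passed for both labels, 2 for GSK343 and 2 for shEZH2, with 0 regulators in each. Every treatment call of a regulator thus depends on the pairing by line. Leaving out 1 library or 1 line in turn gave 145 to 2053 genes and 0 to 7 regulators for both labels, 43 to 1250 and 0 to 5 for GSK343, 16 to 1621 and 0 to 5 for shEZH2, 0 to 3 genes and 0 regulators for the direct comparison, 0 to 4049 and 0 to 9 for a difference between lines (the 6 labelled libraries in turn and, chosen after seeing the data, the MDA-MB-453 line), and 6909 to 8792 and 28 to 31 between MDA-MB-436 and MDA-MB-231. Apart from the alternatives named, the causes of these shifts were not tested. Levels under about 0.1 RPKM rest on a few reads at this depth, and 1 library per line and label leaves no replicate within a line.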
